A study of Mus musculus with 6 samples.

Results

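Sesn2, which encodes the stress-induced protein sestrin 2, was examined together with 9 genes of the integrated stress response: Atf4, Atf3, Ddit3, Trib3, Chac1, Asns, Ppp1r15a, Eif2ak3 and Eif2ak4. These 10 genes, found by symbol among the 49315 genes of the count table, are the ATF4 transcription factor, 2 kinases upstream of it, targets downstream of it, and Sesn2. The question was whether Sesn2 stood higher together with the ATF4 branch or apart from it. The members were chosen by name, with their fold changes between the genotypes already known from the same libraries, so these differences are given as a description. The fits over all genes included the members. Counts of members called are printed for reference beside the shares of all genes, and lend no independent support.

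The libraries hold RNA of fully grown oocytes at the germinal vesicle (GV) stage, arrested before the first meiotic division, from 3 Control mice and 3 mice with an oocyte-specific conditional knockout of Rpa1 (OcKO). All mice were 4 to 5 weeks old and had been primed with PMSG, a gonadotropin that stimulates follicle growth, and each library pooled about 20 oocytes of 1 mouse without cumulus cells. Rpa1 encodes the large subunit of the single-stranded DNA binding protein RPA, and the series asks about its part in DNA damage repair during oogenesis. The sources used here do not give the Cre driver, or the alleles that the Control mice carry. In pooled oocytes, more RNA in every oocyte and much more RNA in a few of them cannot be told apart.

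In the integrated stress response, kinases that sense different stresses phosphorylate the initiation factor eIF2, which lowers general translation while the Atf4 mRNA is translated more. ATF4 then switches on genes of amino acid supply, redox balance and, under lasting stress, cell death. Because ATF4 is raised mainly through translation, its mRNA level says little about its activity. Sesn2 is a known target of ATF4 and also of p53, which is activated by DNA damage. Its protein senses leucine and restrains the growth kinase complex mTORC1 through the GATOR complexes.

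The libraries held 36280148 to 44575222 counts, and levels are given in CPM, the count scaled to the effective size of its library by TMM. Rpa1 stood at 150 ± 8.86 CPM in Control against 6.25 ± 1.89 CPM in OcKO (SD, n = 3). The 11 oocyte markers summed to 36759 to 58747 CPM in Control against 30752 to 40289 CPM in OcKO. Of them, 3 (Gdf9, Bmp15 and Ooep) were lower in OcKO without overlap, where 8.67% of all tested genes were. The 12 granulosa and cumulus markers summed to 72.6 to 123 CPM in Control against 102 to 120 CPM in OcKO, and 0 of them separated the groups. The granulosa transcription factor gene Foxl2 had 0 counts in the Control libraries and 2, 0 and 2 counts in OcKO. Theca and stroma markers summed to 7.67 to 14.2 and 10.1 to 19.8 CPM, and blood, immune and endothelial markers to 92.1 to 129 and 98.2 to 124 CPM. Of the former, 1 was higher without overlap (Cyp17a1, at 0 counts in Control and 20, 29 and 31 in OcKO). Of the latter, 1 was lower without overlap (Hbb-bs, at 7, 7 and 13 counts in Control and 2, 2 and 3 in OcKO). Of all tested genes, 10.7% were higher and 8.67% lower without overlap. Within the last list, Pecam1 had 2793 to 5414 counts and Cdh5 had 0 counts in 5 libraries and 1 in the other. The part of these markers in the results was not tested.

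The promoters of these genes differ in the sequences they carry, and the stretches shown are those that bear on the ATF4 branch. RefSeq promoter windows on GRCm38.p6, from 250 bases before to 50 bases after each start site, were found for 10 of the 10 genes (11 windows). They were searched on both strands for the ATF4-C/EBP composite element (TGATGNAA), the cAMP response element (TGACGTCA, bound by CREB and ATF dimers), the CCAAT box (CCAAT) and the p53 element by name (a pair of decamer half-sites up to 13 bases apart). The ATF4-C/EBP element was present in 3.97% of all 32851 windows, the cAMP response element in 1.79%, the CCAAT box in 37.4% and the p53 element in 0.073%. The Sesn2 stretch before its first deposited exon (chr4:132510502-132510706, minus strand) lies in no other gene, and its capitals mark 2 CCAAT boxes read on the opposite strand.
Sesn2: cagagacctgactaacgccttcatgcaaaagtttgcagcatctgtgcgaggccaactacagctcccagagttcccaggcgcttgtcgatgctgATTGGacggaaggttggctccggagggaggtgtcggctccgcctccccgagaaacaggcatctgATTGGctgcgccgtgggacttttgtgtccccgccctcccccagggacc

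The ATF4-C/EBP element was matched in 4 members, Atf3, Chac1, Trib3 and Asns, and not in the Sesn2 window. For Atf3 (chr1:191183416-191183463, minus strand, within the Atf3 gene model but outside its exons) and Chac1 (chr2:119351029-119351076, plus strand, upstream of the gene) the match is shown in capitals, read on the opposite strand. The Trib3 match lies 14 to 21 bases after the RefSeq start and the Asns match in its first deposited exon, so neither is shown.
Atf3: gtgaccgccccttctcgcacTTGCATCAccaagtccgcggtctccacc
Chac1: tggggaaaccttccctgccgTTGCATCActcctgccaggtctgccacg

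Among the members the cAMP response element was found in Ppp1r15a (chr7:45526269-45526300, minus strand, upstream of the gene), where the capitals mark it.
Ppp1r15a: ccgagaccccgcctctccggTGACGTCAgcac

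No window of a member, of Sesn1 or of Sesn3 held a full p53 element. A match is a description of letters, and a missing match says only that these letters are not in this window. The map of matches by distance from the start site shows where they fall.

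**Figure D1:**
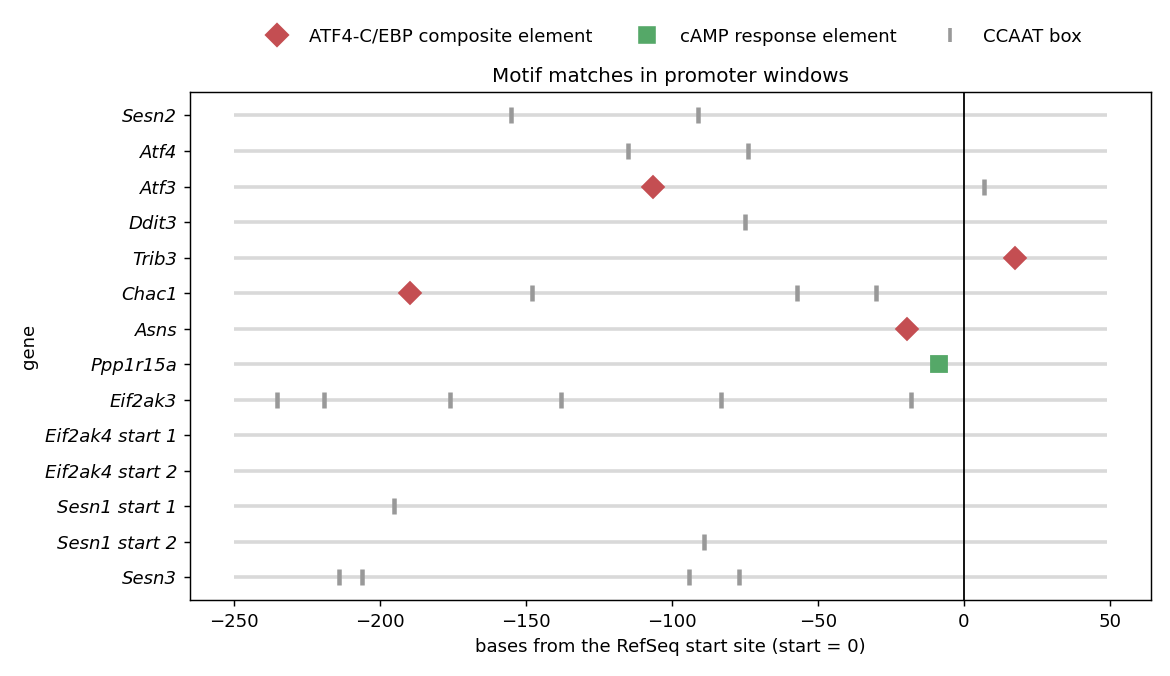
Motif matches in the promoter windows of the 10 genes and of Sesn1 and Sesn3, by distance in bases from the RefSeq start site (x axis, 250 bases before to 50 after). Each line is a window, diamonds are ATF4-C/EBP composite elements, squares cAMP response elements and ticks CCAAT boxes; diamonds appear for Atf3, Trib3, Chac1 and Asns, and Sesn2 carries 2 ticks.

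Sesn2 (ENSMUSG00000028893, chromosome 4, 132492032 to 132510501, minus strand, GRCm38) stood far higher without Rpa1. In Control it held 12.7, 1.74 and 6.51 CPM, in OcKO 85.3, 90.8 and 211 CPM. The groups did not overlap: the lowest OcKO library was above the highest Control library, OcKO replicate 3 was the highest and Control replicate 2 the lowest. The means were 6.99 ± 5.50 and 129 ± 70.9 CPM (SD, n = 3), a ratio of 18.5 and a log2 fold change of 4.21 (SE 0.76). Without OcKO replicate 3 the log2 fold change was 3.65, and without Control replicate 1 it was 4.96. By log2 fold change Sesn2 ranked 334th from the highest of 16060 tested genes.

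The libraries of the other sestrins overlapped between the genotypes. Sesn1, a p53 target of the same family, held 7.56, 0.47 and 0.12 CPM in Control against 6.21, 2.07 and 0.12 CPM in OcKO (log2 fold change of 0.04 with SE 1.69, edgeR adjusted p = 0.997). Sesn3, a target of FOXO factors, held 22.1, 15.6 and 10.3 CPM against 17.6, 12.7 and 12.5 CPM (log2 fold change of -0.17 with SE 0.42, edgeR adjusted p = 0.941). Both signs turned when 1 library was left out: Sesn3 was at 0.14 without Control replicate 1, while Sesn1 was at -0.43, -0.49 and -1.31 when Control replicate 2, Control replicate 3 or OcKO replicate 1 was dropped, and at 3.23 when Control replicate 1 was. Whether Sesn2 differed from Sesn1 and Sesn3 in its change was not tested.

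Atf4 itself (ENSMUSG00000042406, chromosome 15, 80255184 to 80257540, plus strand) had similar mean mRNA levels in the genotypes. It held 98.3, 180 and 150 CPM in Control against 152, 112 and 159 CPM in OcKO, with a log2 fold change of -0.02 (SE 0.27). The OcKO libraries lay within the range of the Control libraries, and Control replicate 2 was the highest of the 6. Its sign varied, from -0.24 to 0.21 over the fits without 1 library, and was positive with library size alone (0.16). The value concerns the mRNA, and translation of Atf4 was not measured.

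Of the 2 kinases, Eif2ak3 encodes PERK, which senses unfolded protein in the endoplasmic reticulum (ER), and Eif2ak4 encodes GCN2, which senses amino acid shortage. Eif2ak3 (chromosome 6, 70844515 to 70905245, plus strand) held 2.76, 0.47 and 4.78 CPM in Control against 3.13, 2.93 and 2.61 CPM in OcKO, so that the OcKO libraries lay inside the Control range (log2 fold change of 0.11 with SE 0.95). Eif2ak4 (chromosome 2, 118388618 to 118475234, plus strand) held 155, 109 and 105 CPM against 77.4, 108 and 77.8 CPM. OcKO replicates 1 and 3 were below all Control libraries and OcKO replicate 2 was not (log2 fold change of -0.49 with SE 0.24).

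Atf3 and Ddit3, transcription factor genes downstream of ATF4, were the members besides Sesn2 whose OcKO libraries all lay above the Control libraries. Atf3 (ENSMUSG00000026628, chromosome 1, 191170296 to 191218039, minus strand), an early response gene also raised by p53 and by other stress pathways, was nearly silent in Control, with 7, 3 and 1 counts. The OcKO libraries held 98, 60 and 62 counts, or 2.24, 1.32 and 1.53 CPM against 0.19, 0.08 and 0.03 CPM (log2 fold change of 4.04 with SE 1.05). Atf3 passed the filter on low counts only through the OcKO libraries, and its level in OcKO was still low. Without Control replicate 1 its log2 fold change was 4.88.

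Ddit3 (ENSMUSG00000025408, chromosome 10, 127290774 to 127296288, plus strand) encodes CHOP, a factor linked to cell death under lasting ER stress. It held 51.2, 38.5 and 66.5 CPM in Control against 102, 69.8 and 128 CPM in OcKO, a ratio of means of 1.92 and a log2 fold change of 0.94 (SE 0.31). The groups were close, since the lowest OcKO library exceeded the highest Control library by a small margin. Of its exonic bases, 68 (3.97%) are shared with Mars on the opposite strand, and the library kit does not mark strand.

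Chac1, Trib3 and Asns, further targets of ATF4, were below 8 CPM in every library. Chac1 (ENSMUSG00000027313, chromosome 2, 119351229 to 119354381, plus strand), which encodes an enzyme that degrades glutathione and is among the most responsive ATF4 targets, stood lower in OcKO. It held 3.61, 3.82 and 4.52 CPM in Control against 0.14, 1.89 and 1.58 CPM in OcKO, with no overlap (means 3.99 ± 0.48 and 1.2 ± 0.94 CPM, SD, n = 3; log2 fold change of -1.73 with SE 1.04). The lowest library was OcKO replicate 1, with 6 counts, and leaving it out gave a log2 fold change of -1.21.

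Trib3 (chromosome 2, 152337422 to 152344032, minus strand), a pseudokinase gene that dampens ATF4 signalling, held 1, 0 and 61 counts in Control and 9, 83 and 135 counts in OcKO. The groups overlapped, and the log2 fold change of 1.58 (SE 1.92) depended on Control replicate 3, without which it was 6.77. Asns (chromosome 6, 7675169 to 7693254, minus strand), the asparagine synthetase gene, held 7.72, 4.35 and 0.12 CPM against 6.01, 7.79 and 5.00 CPM. Its Control replicate 3 had 4 counts, and the log2 fold change of 0.62 (SE 1.17) became 0.07 without that library.

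Ppp1r15a (chromosome 7, 45522916 to 45526268, minus strand) encodes GADD34, the subunit that directs dephosphorylation of eIF2 and so ends the response. It held 95.3, 140 and 89.0 CPM in Control against 94.7, 115 and 208 CPM in OcKO. Only OcKO replicate 3, also the highest library for Sesn2, Ddit3 and Trib3, was above the Control range. The log2 fold change was 0.36 (SE 0.34), and -0.05 without that library.

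**Figure D2:**
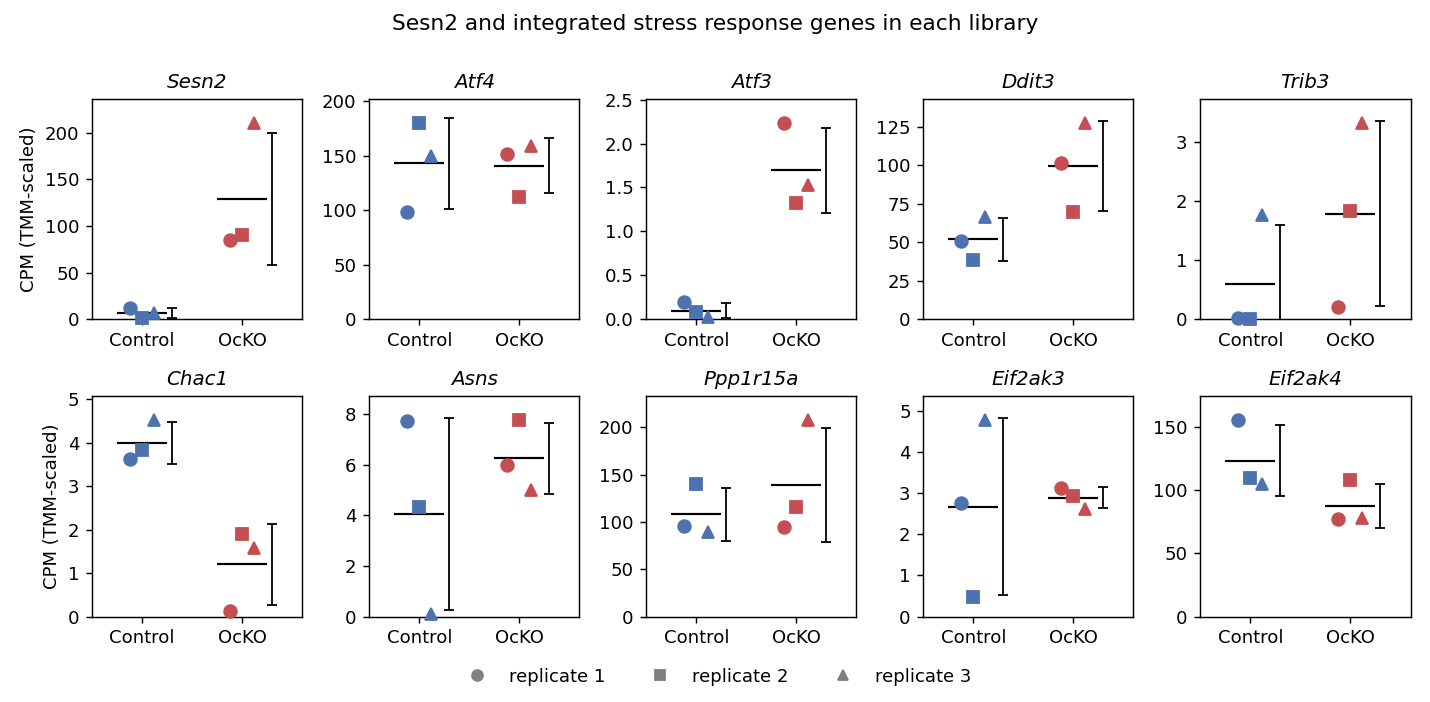
CPM (y axis, TMM-scaled, from 0) of Sesn2 and the 9 integrated stress response genes in each of the 3 Control and 3 OcKO libraries. Points are libraries with the replicate as the symbol, horizontal lines are means and error bars are SD (n = 3); the groups are apart for Sesn2, Atf3 and Ddit3 (higher in OcKO) and Chac1 (lower), and overlap for the other 6.

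All 10 members were tested, and edgeR called 0 of them at an adjusted p under 0.05, where it called 0.137% of all 16060 genes higher and 0.00623% lower. By unadjusted p under 0.05 there were 3 members on the higher side, where 5.93% of all genes were higher and 5.21% lower. DESeq2 called 1 member, Sesn2, which was higher; it called 4.66% of all genes, 2.97% higher and 1.69% lower. Run without a filter, it called 2 members, Sesn2 and Atf3, and 2.79% of all genes higher and 1.43% lower. By limma voom the count was 0 members, and 0% of all genes on the higher side. The libraries did not overlap for 3 members on the higher side and 1 on the lower, against 10.7% and 8.67% of all genes. These shares are printed for reference, since the set was chosen with this comparison in view. The median log2 fold change was 0.36 over the 9 members other than Sesn2 and 0.01 over all tested genes.

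Per kilobase of exon, which allows genes to be compared, the level of Sesn2 moved within the order of the members. In Control, Atf4 was the highest (82.9 ± 24.1 CPM per kb, SD, n = 3), followed by Ppp1r15a (36.8 ± 9.52), Ddit3 (30.4 ± 8.19) and Eif2ak4 (16.5 ± 3.76). Chac1 (2.44 ± 0.29), Sesn2 (2.01 ± 1.58), Asns (1.49 ± 1.39), Eif2ak3 (0.44 ± 0.36), Trib3 (0.28 ± 0.47) and Atf3 (0.047 ± 0.039) followed in CPM per kb, each overlapping the next. Ppp1r15a and Ddit3 also overlapped, while the other neighbours in the upper part of the order did not.

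In OcKO, Sesn2 was at 37.1 ± 20.4 CPM per kb (SD, n = 3), 4th among the members, and overlapped Ppp1r15a (47.4 ± 20.5), which overlapped Ddit3 (58.3 ± 17.0), which overlapped Atf4 (81.8 ± 14.7). Its libraries lay above those of Eif2ak4 (11.7 ± 2.33 CPM per kb), which lay above those of Asns (2.29 ± 0.52). Trib3 (0.84 ± 0.73), Atf3 (0.79 ± 0.22), Chac1 (0.73 ± 0.57) and Eif2ak3 (0.48 ± 0.043) came last, each overlapping the next.

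Beyond the members, 44 other targets of ATF4 were tested, in lists of amino acid synthesis, amino acid transport, tRNA synthetases and secreted or stress genes. Of the 44, edgeR called 0, limma voom 0 and DESeq2 3, all higher. Of all genes, DESeq2 called 2.97% higher and 1.69% lower. By unadjusted p under 0.05 in edgeR, 6 of the 44 were on the higher side and 1 on the lower. The shares of all genes were 5.93% and 5.21%. The median log2 fold change of the 44 was 0.23, and 29 of 44 (65.9%) were positive, against 0.01 and 50.8% for all genes. Without overlap between the groups, 7 (15.9%) stood higher and 2 lower, where 10.7% and 8.67% of all genes did. Scaling by library size alone shifted all genes by 0.17 at the median; the list's median was then 0.41, with 35 of 44 positive.

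In the list of amino acid synthesis and one-carbon genes, 6 of 11 were positive, the median log2 fold change was 0.03 and edgeR called 0. Psph, which makes serine from phosphoserine, held 2.56, 1.74 and 0.84 CPM in Control against 17.7, 7.79 and 13.0 CPM in OcKO (log2 fold change of 2.90 with SE 0.69, edgeR adjusted p = 0.150). Psph shares 452 exonic bases (10.4%) with Cct6a on the opposite strand, which had 425 counts on average in Control and 1974 in OcKO, and the part of Cct6a reads in the Psph value was not tested. Shmt2, which passes the serine carbon to folate in mitochondria, stood at 52.9 ± 1.52 and 92.1 ± 23.3 CPM (SD, n = 3; log2 fold change of 0.80 with SE 0.24, edgeR adjusted p = 0.244). Psat1, the step before Psph, was below the filter with 3, 3 and 0 counts in Control and 2, 60 and 76 in OcKO. Phgdh, also of this list, held 42.8, 36.6 and 35.9 CPM in Control against 51.7, 63.1 and 74.7 CPM in OcKO. Its libraries did not overlap (log2 fold change of 0.72 with SE 0.24, edgeR adjusted p = 0.298). DESeq2 called Phgdh higher only when run without a filter. Cars, the cysteinyl-tRNA synthetase gene, stood at 46.7 ± 7.75 and 93.7 ± 15.9 CPM (log2 fold change of 1.00 with SE 0.24, edgeR adjusted p = 0.148). DESeq2 called Psph, Shmt2 and Cars higher. Shmt2 shares 30 exonic bases (1.30%) with Ndufa4l2 on the opposite strand, which had 33.3 counts on average in Control and 1987 in OcKO. The part of Ndufa4l2 reads in the Shmt2 value was not tested.

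Further ATF4 targets lay on either side. Without overlap, 7 of the 44 stood higher (Phgdh, Psph, Shmt2, Cars, Nars, Slc3a2 and Gdf15) and 2 lower (Iars and Rab32). Nars, of the tRNA synthetase list, held 193, 180 and 169 CPM in Control against 250, 254 and 209 CPM in OcKO (edgeR adjusted p = 0.431). Slc3a2, the heavy chain of amino acid exchangers, stood higher, at 164 ± 29.6 and 258 ± 36.0 CPM (SD, n = 3), with no overlap (edgeR adjusted p = 0.275). Its partner Slc7a11, the cystine transporter chain, was at 307 ± 45.5 and 218 ± 86.6 CPM (edgeR adjusted p = 0.620). The isoleucyl-tRNA synthetase gene Iars was at 474 ± 81.5 and 297 ± 63.5 CPM, and Rab32, a small GTPase gene, at 83.0 ± 15.0 and 52.8 ± 18.3 CPM, with no overlap of libraries for either. Ddit4, which like Sesn2 restrains mTORC1 and answers to both ATF4 and p53, held 28.8, 22.3 and 13.8 CPM in Control against 29.5, 27.7 and 40.6 CPM in OcKO (log2 fold change of 0.59 with SE 0.36, edgeR adjusted p = 0.635). Gdf15, a secreted stress hormone gene shared by ATF4 and p53, stood higher without overlap, at 1.2 ± 1.08 and 4.06 ± 1.05 CPM (edgeR adjusted p = 0.682).

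Genes that act with ATF4 or before it had no call by edgeR. Of 9 tested partner and bZIP factors, edgeR and DESeq2 called 0, 0 passed an unadjusted p of 0.05 and 2 were positive (4 with library size alone). Cebpg, the widespread partner of ATF4, stood at 20.2 ± 4.96 and 12.6 ± 3.38 CPM (SD, n = 3), and Cebpb had 3 to 6 counts in Control and 0, 3 and 14 in OcKO, below the filter. Cebpd stood at 0.85 ± 0.68 and 0.25 ± 0.14 CPM and shares 559 exonic bases (14.9%) with Spidr on the opposite strand. In a list of 13 genes, those of eIF2, its exchange factor eIF2B and its phosphatases together with Eif2a, the median log2 fold change was 0.07. Calls by edgeR and by DESeq2 were 0, and 1 gene was lower by an unadjusted p under 0.05, where 5.21% of all genes were. That gene was Eif2b4, a subunit of eIF2B, at 165 ± 2.05 and 110 ± 27.2 CPM (edgeR adjusted p = 0.369). It shares 204 exonic bases with Snx17 on the opposite strand. Eif2a, with the next smallest p of this list, encodes eIF2A, a separate factor that is not a subunit of eIF2. It stood at 34.3 ± 8.32 and 55.9 ± 17.4 CPM, and its libraries overlapped (edgeR adjusted p = 0.506).

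Of the 5 other genes around the eIF2 kinases, edgeR called 0, and 2 stood lower with an unadjusted p under 0.05. Of all genes, 5.21% did. Dnajc3, which encodes a co-chaperone that inhibits PERK, held 307, 361 and 292 CPM in Control against 148, 211 and 176 CPM in OcKO, with no overlap. Its log2 fold change was -0.85 (SE 0.19, edgeR adjusted p = 0.136), and DESeq2 called it lower. Gcn1l1, the activator of GCN2, stood at 228 ± 63.6 and 129 ± 39.7 CPM (SD, n = 3; edgeR adjusted p = 0.361).

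The 2 other arms of the unfolded protein response showed no common direction. Of 26 tested genes of the IRE1 and ATF6 arms and ER chaperones, 11 were positive and 15 negative, with a median log2 fold change of -0.08, and edgeR called 0. With library size alone, 14 were positive and the median was 0.08. By unadjusted p under 0.05 in edgeR, 1 stood higher (Dnajb9) and 1 lower (Ern1), against 5.93% and 5.21% of all genes. Calls were 0 by limma voom and 1 by DESeq2, on the lower side, where DESeq2 called 1.69% of all genes. Without overlap, 2 of the 26 stood higher and 4 lower, against 10.7% and 8.67% of all genes. Dnajb9 held 6.78, 3.48 and 5.21 CPM in Control against 9.43, 10.4 and 18.2 CPM in OcKO (log2 fold change of 1.30 with SE 0.54, edgeR adjusted p = 0.434). Hspa5, the chaperone BiP, held 540, 829 and 666 CPM in Control against 656, 606 and 742 CPM in OcKO (log2 fold change of -0.02 with SE 0.20, edgeR adjusted p = 0.987, and 0.16 with library size alone). Xbp1, the target of IRE1 splicing, was at 2.21 ± 0.46 and 4.41 ± 2.45 CPM (SD, n = 3). Ern1, which encodes IRE1 itself, was at 1113 ± 294 and 550 ± 125 CPM, with no overlap (log2 fold change of -1.02 with SE 0.26, edgeR adjusted p = 0.187), and DESeq2 called it lower.

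**Figure D3:**
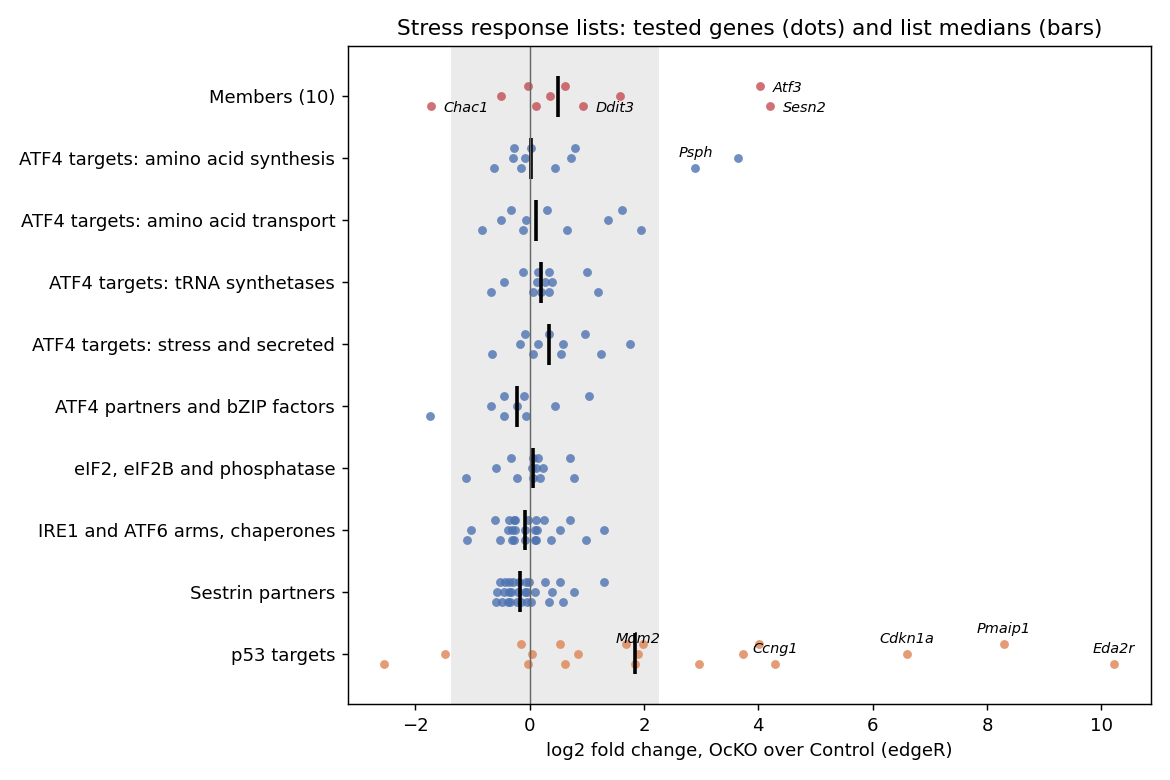
Log2 fold change of OcKO over Control (x axis, edgeR) for the tested genes of each list (dots) with the list median (black bars); the grey band holds the middle 90% of all tested genes, from -1.35 to 2.25. Sesn2 (4.21) and Atf3 (4.04) lie outside the band, while the medians of the ATF4 target lists lie between 0.03 and 0.35.

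Genes through which sestrins act were measured at 30 genes of the GATOR, Rag, mTORC1, AMPK and KEAP1 complexes. No call came from edgeR, DESeq2 or limma voom (0 each), and by unadjusted p under 0.05 in edgeR 0 stood higher and 2 lower. Of all genes, 5.93% and 5.21% did. The median log2 fold change was -0.17, with 9 positive and 21 negative; with library size alone 15 were positive. Without overlap, 0 of the 30 stood higher and 4 lower (Rragc, Prkag1, Mios and Rheb), against 10.7% and 8.67% of all genes. Rragc, a Rag GTPase gene, stood at 229 ± 47.6 and 154 ± 29.4 CPM (SD, n = 3; edgeR adjusted p = 0.401). Prkag1, an AMPK subunit gene, was at 67.1 ± 7.13 and 46.9 ± 6.33 CPM (edgeR adjusted p = 0.448). Of Prkag1, 731 exonic bases (44.6%) are shared with an uncharacterised gene on the opposite strand.

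The p53 side was set beside these values because Sesn2 answers to p53 as well. Of 19 tested p53 targets, Trp53 included, edgeR called 4 higher (Eda2r, Pmaip1, Btg2 and Mdm2) and 0 lower, against 0.137% and 0.00623% of all genes. Without overlap, 10 (52.6%) stood higher and 1 lower, against 10.7% and 8.67% of all genes, and the median log2 fold change was 1.85, against 0.01. Cdkn1a, the cell cycle inhibitor p21, held 0.03, 0.74 and 0.52 CPM in Control against 9.80, 15.6 and 100.2 CPM in OcKO (edgeR adjusted p = 0.120). Of the 4 called genes, Eda2r (0, 0 and 1 counts in Control) and Pmaip1 (7, 2 and 3) passed the filter on low counts only through the OcKO libraries. All 4 calls were lost whichever library was left out, and with limma voom. The list was made with these values known and lends no independent support.

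By library, the difference of log2 CPM from the Control mean was 4.01, 4.10 and 5.31 for Sesn2 in OcKO replicates 1 to 3. The median over the 44 other ATF4 targets was 0.50, 0.03 and 0.36, and over 18 p53 targets without Trp53 it was 2.01, 2.29 and 2.35. Sesn2 was thus above both medians in each OcKO library. Whether Sesn2 differed from either group of genes was not tested, since Sesn2 was chosen with its difference known.

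The genes whose pattern over the 6 libraries came closest to that of Sesn2 were Xkr8, Stk16, S100a16, Corin and Ms4a10, among 9247 named genes with a mean of at least 5 CPM. Likeness was the root mean square difference between log2 CPM profiles centred on their Control means, and it was 0.63, 0.64, 0.65, 0.86 and 1.05 for these 5. S100a16, of the S100 calcium-binding family, stood at 3.79 ± 2.56 and 74.7 ± 24.2 CPM (SD, n = 3). Ms4a10, of the MS4A membrane protein family, rose from 2.20 ± 0.74 to 70.1 ± 30.5 CPM (edgeR adjusted p = 0.0250), a call lost in 5 of the 6 fits without 1 library. Stk16, a kinase gene, shares 30.5% of its exonic bases with Tuba4a on the opposite strand, which had 15034 counts on average in Control and 19880 in OcKO. Of the stress and p53 lists, the highest-ranked genes with the minimum level were Ccng1, a p53 target, at 9th and Psph at 39th. Plk2 at 44th, Btg2 at 47th and Mdm2 at 183rd came next. Of the members with the minimum level, Ddit3 was 587th, Asns 897th, Ppp1r15a 2471st, Atf4 4671st and Eif2ak4 6921st. Ccng1 held 16.8, 6.88 and 2.13 CPM in Control against 140, 188 and 178 CPM in OcKO. This order depended on the 5 CPM minimum, below which genes were not ranked. Atf3 was below it, with a difference of 1.1043 against 1.1093 for Ccng1. The ATF4 targets Cbs (1.184) and Slc43a1 (1.5214), also below it, were closer to Sesn2 than Plk2 (1.5508) and Btg2 (1.5703). Libraries of Cbs and of Slc43a1 overlapped between the genotypes.

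**Figure D4:**
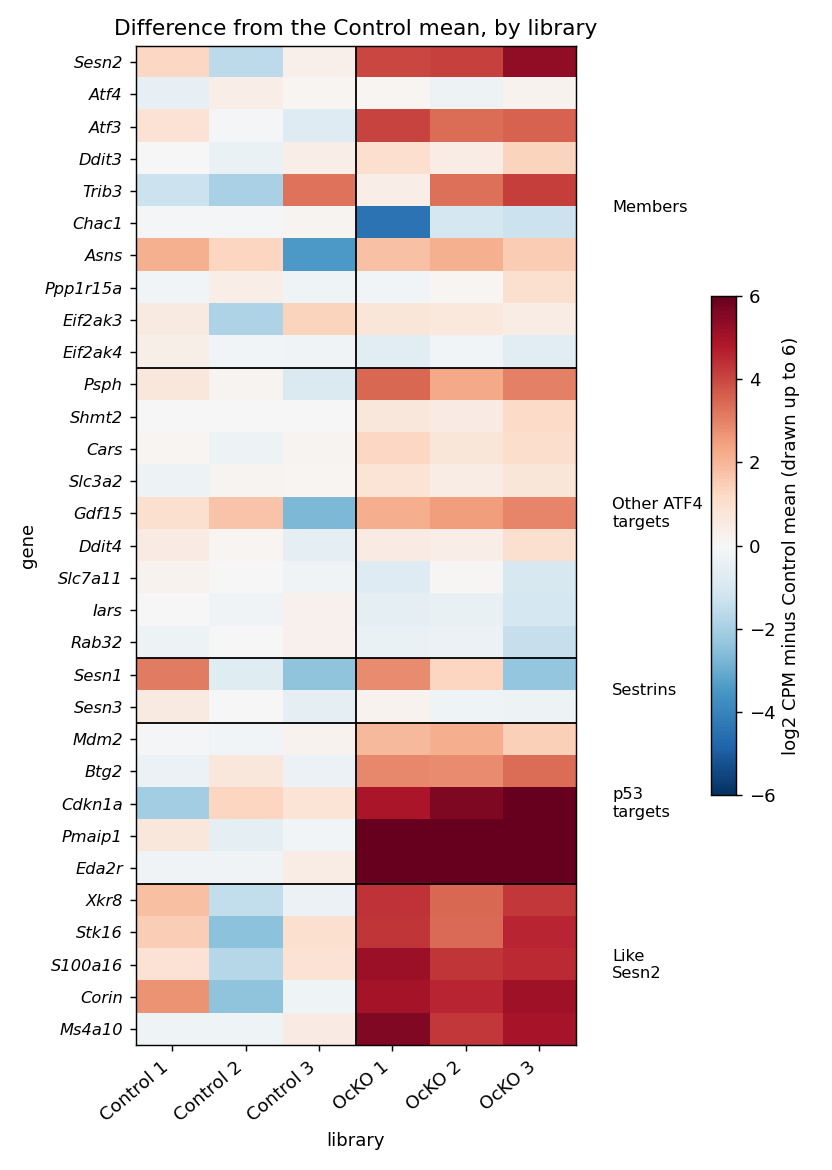
Difference of log2 CPM from the Control mean in each library (columns) for the members, other ATF4 targets, sestrins, p53 targets and the 5 genes most like Sesn2 (rows); red is above and blue below the Control mean, and values past the ends of the colour scale take its end colour. Sesn2 and Atf3 are red in the 3 OcKO libraries, Atf4 is pale throughout, Chac1 is blue in OcKO, and Trib3 and Asns vary within Control (Trib3 is red and Asns blue in replicate 3).

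Atf3 and Ppp1r15a also belong to genes switched on within minutes of a stimulus, so 14 tested immediate early genes were counted. Apart from Btg2, a p53 target that was called higher, edgeR called 0 of them. Over all 14, Btg2 included, the median log2 fold change was -0.39, with 6 positive and 8 negative. Dusp1, a phosphatase of this class, held 136, 79.0 and 18.8 CPM in Control against 18.2, 13.1 and 19.7 CPM in OcKO, and DESeq2 called it lower. Fos held 3.61, 1.85 and 7.43 CPM against 0.09, 5.04 and 0.96 CPM.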

How the data were processed

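The authors deposited raw counts of reads per gene, not normalized, for each library. Per the submitters' processing notes, reads were processed with Trimmomatic 0.36, STAR 2.5.2b and featureCounts of Subread 1.5.2 on GRCm38. The annotation release, strand setting and handling of multi-mapped reads are not stated in what was used here. The series table and the per-sample files differed in 0 values. Levels per kb use the deposited gene length in bases.

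Counts were tested with edgeR 4.0.16 (R 4.3.3; glmQLFit, glmQLFTest, TMM, filterByExpr with a minimum count of 10), leaving 16060 genes, with Benjamini-Hochberg adjustment over all of them and calls under 0.05. SE is the absolute log2 fold change over the root of F. CPM are TMM-scaled; log2 CPM profiles use a prior count of 2. Exon overlaps come from the deposited gene models. Alternatives were library size alone, DESeq2 size factors, no filter, a mean of 5 CPM, DESeq2 1.42.0, limma 3.58.1 voom, a replicate block, each library left out, and a prior count of 0.5; DESeq2 without a filter was added after seeing the data. The fit was tested on simulated data.

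Named genes are the members, Rpa1, 2 genes of smallest p per list, 11 fixed genes and the 5 most like Sesn2; others were named after their values were seen. The members and lists were chosen with earlier results of these data known. Each library is 1 mouse, so p-values set the group difference against the spread between libraries. In that spread, mouse, oocyte pool and library preparation cannot be told apart. Promoter sequences are RefSeq's (GRCm38.p6).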

Additional observations from a re-analysis of the deposited data

How the results depend on the processing

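Over the 15 fits, Sesn2 and Ddit3 kept a positive log2 fold change, with ranges of 3.65 to 4.96 and 0.72 to 1.18; Atf4 took both signs (-0.24 to 0.21). The number of genes called was 23, and it was 70 at a minimum mean of 5 CPM, 749 with DESeq2, 1156 with DESeq2 without a filter and 1 with limma voom. With the replicate block it was 0. Deviations from the group means correlated across genes at -0.037 to -0.045 for same-numbered libraries, against 0.0135 to 0.0309 for other pairs. The labels link same-numbered libraries by number alone. Deviations within a group sum to 0, so these correlations cannot exclude another link. Leaving out 1 library gave 0 to 5 calls. Of the 10 members, 0 were called; 1 (Sesn2) was called at a minimum mean of 5 CPM and 1 with DESeq2, 2 (Sesn2 and Atf3) with DESeq2 without a filter, 0 with the replicate block and 0 in each fit without 1 library. Of the other pathway genes, p53 targets aside, 0 were called, and fits without 1 library gave 0 throughout. With Btg2 included, these lists held 153 genes tested by edgeR. Btg2 aside, DESeq2 called 7 and, without a filter, 10, where it called 4.66% and 4.21% of all genes. The cause of these differences was not tested. With a prior count of 0.5, 4 of the 5 genes most like Sesn2 were the same. Reads carry no molecular identifiers, 3 libraries a group allow no exact permutation p under 0.1, and genes of a few counts, such as Trib3, Atf3 and Asns in Control replicate 3, have little precision.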

Other observations

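Xkr8, the gene closest to Sesn2 in pattern, lies on the same chromosome, 214.4 kb from it. The tested genes within 500 kb of Sesn2 were therefore listed after the values were seen. Of 20 such genes, edgeR called 0, 11 had a positive log2 fold change and the median was 0.11. Without overlap between the groups, 4 stood higher in OcKO and 2 lower, where 10.7% and 8.67% of all tested genes did. Besides Xkr8 (2.48, 0.21 and 0.52 CPM in Control against 14.5, 7.85 and 13.5 CPM in OcKO), the higher ones were Ppp1r8 (1.65, 2.90 and 6.89 against 33.9, 9.06 and 22.9 CPM), Snhg3 and Dnajc8. The lower ones were Epb41 (148 ± 38.6 against 69.6 ± 2.45 CPM, SD, n = 3) and Fgr. Atpif1, 20.1 kb from Sesn2, held 34.7, 42.5 and 55.1 CPM against 51.8, 41.2 and 38.0 CPM.

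Among 10 tested genes of mitochondrial protein quality control, edgeR called 0. An unadjusted p under 0.05 was found for 4, with 2 higher and 2 lower, against 5.93% and 5.21% of all genes. The DESeq2 call was 1, Afg3l2, lower, where DESeq2 called 1.69% of all genes lower. Yme1l1, an inner membrane protease gene, held 12.1, 17.3 and 9.42 CPM in Control against 29.8, 33.3 and 20.0 CPM in OcKO (edgeR adjusted p = 0.329). Clpp, the matrix protease gene, stood at 11.4, 11.2 and 11.3 CPM against 26.6, 16.1 and 19.5 CPM. Oma1, the protease that relays mitochondrial stress to the eIF2 kinase HRI, stood at 76.1, 64.8 and 102 CPM against 83.0, 104.5 and 95.3 CPM. Eif2ak1, the HRI gene, held 246, 232 and 222 CPM against 183, 284 and 225 CPM. Afg3l2, a second inner membrane protease gene, held 127, 75.6 and 20.7 CPM against 18.7, 16.2 and 25.4 CPM, and Control replicate 3 lay among the OcKO libraries.

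Several stress genes below the filter had counts in some libraries only. Vldlr, a lipoprotein receptor gene and ATF4 target, had 0 counts in Control and 0, 41 and 351 in OcKO. Nupr1, a stress-induced chromatin protein gene, had 0 in Control and 5, 2 and 30 in OcKO. Fgf21, a secreted hormone gene, had 0, 91 and 0 in Control and 0, 20 and 0 in OcKO.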
